A study of Mus musculus with 12 samples.

Results

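The changes described here are those of C2C12 cells at day 5 of differentiation that were gone again, in whole or in part, by day 8. A probe was a member when all 3 day 5 arrays lay above, or all 3 lay below, the 6 arrays of day 2 and day 8. The rule found 1920 of 37246 probes, 1052 of them above and 868 below, which stand for 1806 of 34289 genes or transcripts. C2C12 is a mouse skeletal myoblast line that leaves the cell cycle and fuses into multinucleated myotubes when serum is withdrawn. RNA was profiled on 12 one-colour Agilent arrays with probes for mRNAs and for long non-coding transcripts, 3 arrays from independent experiments at each of 4 stages. The proliferation stage was sampled in growth medium with 10% fetal bovine serum near confluence, and the other cultures were sampled 2, 5 and 8 days after the change to 2% horse serum. All cultures were the same unmodified line, so no group carried an allele, a transgene or a drug. The cultures were not sorted, so myotubes and the mononucleated cells left beside them were lysed together.

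Myoblast differentiation is run by the myogenic bHLH factors: Myod1 marks the committed cell, Myog is switched on as it differentiates, and genes of fusion and of the sarcomere follow. Immediate early genes are a separate class. They encode transcription factors and short-lived signalling regulators (the Fos, Egr and Nr4a families, Atf3, Ier2, Dusp1) whose transcription is induced within minutes of a growth factor, a calcium signal or stress, without new protein synthesis, and whose mRNAs decay fast.

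Each array was scaled to its own 75th percentile. A level is the log2 of a probe's signal minus the log2 of that percentile, so 0 is the percentile itself and levels of different probes are not comparable. The percentile was 1290 to 1990 intensity units, 56.9% to 69.5% of spots lay well above background, and no spot was saturated. Arrays of 1 stage correlated at 0.985 to 0.994 over probes, and day 5 arrays at 0.96 to 0.972 with day 2 and 0.981 to 0.985 with day 8. The line's identity was checked on 8 defining muscle markers, all measurable, whose summed linear level was 76 to 102 times the percentile in proliferation, 81.5 to 109 at day 2, 555 to 635 at day 5 and 364 to 486 at day 8. The stages were spread unevenly over 3 slides of 4 arrays, and no slide held day 2, day 5 and day 8 together. Slide 1 held all 3 proliferation arrays and day 2 replicate 1, so proliferation shared no slide with day 5 or day 8. Slide 2 held 2 day 2 and 2 day 5 arrays, and slide 3 held day 5 replicate 3 and all of day 8. For the step from day 5 to day 8 a comparison within a slide therefore rests on 1 day 5 array, and the block values given beside the results are from a fit with slide as a term.

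Of the 22960 probes that could be tested, 957 lay above both neighbours on all arrays (4.17%) and 826 below (3.6%). In 1 limma fit over the 12 arrays, with Benjamini-Hochberg adjustment over all tested probes at 0.05, the mean of day 5 exceeded the average of the day 2 and day 8 means at 1458 probes (6.35%) and was under it at 1589 (6.92%). Most of those were not called as reversals: 1161 of the higher and 1337 of the lower probes were not called against both neighbours. A reversal in the stricter sense, with day 5 called against day 2 and against day 8 in the same direction, was found for 297 probes above (1.29%, 201 named genes) and 252 below (1.1%, 183 named genes). These are called peaks and troughs below. Of the members by array order that were tested, 290 above and 247 below were peaks or troughs, whereas 223 above and 156 below were called against neither stage.

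With slide as a block the counts dropped to 84 peaks (0.366%) and 58 troughs (0.253%), of which 73 and 41 were among the original ones. The sign of both differences was kept in that fit by all 297 peaks and all 252 troughs. For the 290 peaks and 247 troughs that were members by array order this was fixed in advance. The block differences are those within a slide, between arrays that the order had already separated. The median standard error of the day 5 to day 8 difference went from 0.204 to 0.27 with the block, and that of day 5 to day 2 from 0.204 to 0.234. Leaving out each array in turn, 113 of the 297 peaks and 68 of the 252 troughs stayed called in all 12 fits. The total of 549 went to 260 and 329 without day 5 replicate 1 or 2, and to 314, 354 and 312 without day 8 replicate 1, 2 or 3. With normexp background correction the members by array order were split 647 above and 929 below, against 1052 and 868 as processed by the scanner software.

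**Figure D1:**
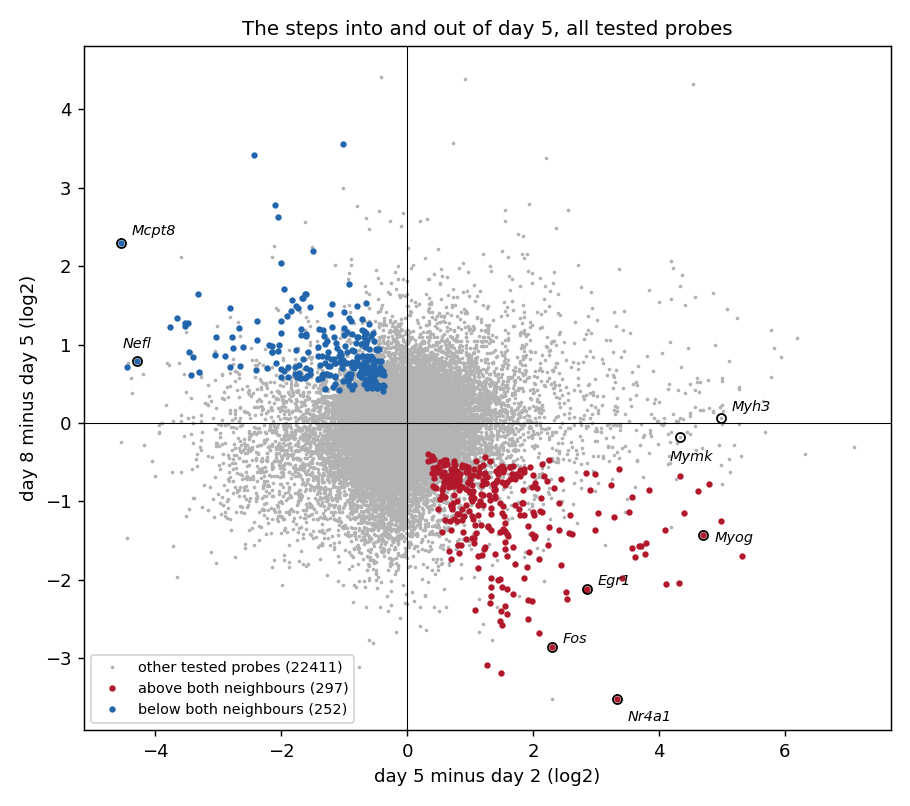
Each point is a tested probe, with the log2 change from day 2 to day 5 on the x axis and from day 5 to day 8 on the y axis, and colours mark the 297 peaks and 252 troughs. Peaks sit at the lower right and troughs at the upper left; the median peak rose by 1.27 and then went by -0.92, while the median trough went by -0.99 and then rose by 0.78.

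The return by day 8 was often incomplete. Among the 297 peaks, 166 had a day 8 level that was not called different from day 2, 106 stayed above day 2 and 25 ended below it. Among the 252 troughs, 152 were not called different from day 2, 83 stayed below it and 17 ended above it. Against proliferating cells, 275 peaks were higher at day 5 (23.7% of all tested probes were) and 186 troughs were lower (23.8%). The day 5 arrays that chose the peaks and troughs enter this comparison too, so the choice itself favoured these directions. The smaller of the 2 differences had a median of 0.81 for peaks, with a range of 0.33 to 3.33, and of -0.70 for troughs. It exceeded 1 on the log2 scale in 109 peaks and 49 troughs.

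Genes near the head of each direction are shown first by the 300 bases around their RefSeq transcription start (GRCm38.p6, 250 before and 50 after the start, 5′ to 3′ on the gene's strand) to show the sequence behind the motif counts. The windows are chr15:101266596-101266895 (plus strand) for Nr4a1, chr12:85473640-85473939 (plus) for Fos, chr12:99964249-99964548 (plus) for Kcnk13, chr14:56085148-56085447 (minus) for Mcpt8 and chr13:23683910-23684209 (minus) for H2ac6. Capitals mark matches to the motifs searched, which are spelled out with the motif counts near the end. The first 3 genes are peaks and the last 2 are troughs.
Nr4a1: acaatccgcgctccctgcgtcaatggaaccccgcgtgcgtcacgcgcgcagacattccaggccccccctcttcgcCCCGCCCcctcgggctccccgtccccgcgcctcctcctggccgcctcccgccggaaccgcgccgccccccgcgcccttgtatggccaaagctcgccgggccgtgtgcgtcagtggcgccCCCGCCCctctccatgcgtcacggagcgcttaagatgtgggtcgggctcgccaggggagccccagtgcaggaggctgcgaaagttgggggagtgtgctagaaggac
Fos: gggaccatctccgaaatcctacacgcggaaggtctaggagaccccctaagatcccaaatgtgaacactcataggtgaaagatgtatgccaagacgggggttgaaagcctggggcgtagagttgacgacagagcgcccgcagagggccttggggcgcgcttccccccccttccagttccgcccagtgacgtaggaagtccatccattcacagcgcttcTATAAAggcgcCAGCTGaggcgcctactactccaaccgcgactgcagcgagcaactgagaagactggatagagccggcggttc
Kcnk13: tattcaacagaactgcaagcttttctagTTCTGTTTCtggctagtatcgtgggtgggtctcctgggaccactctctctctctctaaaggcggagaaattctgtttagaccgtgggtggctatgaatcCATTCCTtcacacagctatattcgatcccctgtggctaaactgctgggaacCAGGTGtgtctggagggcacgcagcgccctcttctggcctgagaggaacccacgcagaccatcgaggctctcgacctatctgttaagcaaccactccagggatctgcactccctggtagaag
Mcpt8: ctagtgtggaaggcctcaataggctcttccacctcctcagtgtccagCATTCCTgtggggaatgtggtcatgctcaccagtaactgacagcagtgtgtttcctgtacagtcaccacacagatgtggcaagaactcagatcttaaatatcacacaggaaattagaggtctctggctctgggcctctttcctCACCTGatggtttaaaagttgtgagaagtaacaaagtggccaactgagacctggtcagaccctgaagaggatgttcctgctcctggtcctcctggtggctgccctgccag
H2ac6: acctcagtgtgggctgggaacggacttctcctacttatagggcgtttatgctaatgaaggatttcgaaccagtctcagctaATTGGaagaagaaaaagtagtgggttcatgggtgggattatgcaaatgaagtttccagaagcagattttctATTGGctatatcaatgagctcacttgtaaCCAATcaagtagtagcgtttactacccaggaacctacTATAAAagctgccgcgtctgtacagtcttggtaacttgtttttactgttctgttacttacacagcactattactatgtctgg

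Nr4a1, an orphan nuclear receptor and immediate early gene, had the largest reversal among the 297 peaks when ranked by the smaller difference. Its level was 4.95, 4.44 and 4.18 on the day 5 arrays, against 1.24, 1.29 and 1.05 at day 2, 1.14, 0.77 and 1.12 at day 8 and 0.79, 1.22 and 1.29 in proliferation. The day 5 arrays stood far above all 9 others, which overlapped one another. Day 5 exceeded day 2 by 3.33 ± 0.21 (SE, 10.1-fold, limma adjusted p = 1.05e-06) and day 8 by 3.52 ± 0.21 (11.4-fold, adjusted p = 2.55e-05). Within slide 2 the difference from day 2 was 3.52, within slide 3 the difference from day 8 was 3.17, and with slide as a block the adjusted p values were 1.86e-05 and 0.00149. The promoter printed above holds 2 GC boxes, 175 and 56 bases before the start.

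Fos, the AP-1 subunit, was already up at day 2. Its level was -0.27, 0.03 and 0.14 in proliferation, 3.1, 2.99 and 2.71 at day 2, 5.36, 5.22 and 5.11 at day 5 and 2.28, 2.72 and 2.15 at day 8. No array of 1 stage overlapped the day 5 arrays, and day 8 remained well above proliferation. Day 5 was 4.92-fold over day 2 (2.3 ± 0.18, limma adjusted p = 4.96e-06) and 7.21-fold over day 8 (2.85 ± 0.18, adjusted p = 3.97e-05). With slide as a block these were 9.61e-05 and 0.00237. Fosb, a second Fos family subunit, was 3-fold over day 2 and 5.41-fold over day 8 (adjusted p = 0.000105 and 0.000134), and its levels of 0.05, -0.11 and -0.79 at day 5 lay above the -1.88, -1.94 and -1.77 of day 2.

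The Egr zinc finger factors peaked as well, with less certainty over slides. Egr1 stood at 4.53, 4.9 and 4.54 at day 5, against 1.69, 1.9 and 1.81 at day 2 and 2.44, 2.78 and 2.4 at day 8. Egr2 stood at 3.89, 3.43 and 2.9, against -0.17, 0.61 and -0.44 at day 2 and 1.4, 1.57 and 1.3 at day 8. Neither gene's day 5 arrays overlapped a neighbouring stage. Day 5 over day 8 was 4.33-fold for Egr1 (2.11 ± 0.45, limma adjusted p = 0.0149) and 3.96-fold for Egr2 (1.98 ± 0.31, adjusted p = 0.0038). With slide as a block the adjusted p values for that step were 0.153 and 0.0858, and Egr1 also missed the threshold without day 8 replicate 3 (adjusted p = 0.0504). Egr4 was well above background at day 5 alone among the later stages, at least 2.60-fold over day 2 and at least 2.74-fold over day 8, and entered the test through day 5 alone. These bounds set the day 5 mean against the lowest signal that counted as well above background on each array of the dim stage, or the probe's own where higher.

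Atf3, a stress-induced bZIP factor, ended lower than it began. Its level was 3.41, 3.38 and 3.29 at day 2, 5.08, 4.54 and 4.26 at day 5 and 1.76, 1.22 and 1.66 at day 8, below the 2.47 to 2.97 of proliferating cells. Day 5 was 2.41-fold over day 2 (limma adjusted p = 0.00146) and 8.48-fold over day 8 (adjusted p = 9.64e-05). The feedback regulators of the class followed. Dusp1, a phosphatase that switches off MAP kinases, was 1.61-fold over day 2 and 3.33-fold over day 8 (adjusted p = 0.00344 and 0.00014). Ier2 was 2.61-fold and 3.18-fold over the same stages, and Ccn1, a secreted matrix-associated protein, 2.74-fold and 3.99-fold. Zfp36, which targets AU-rich mRNAs for decay, was 2.64-fold over day 2 and 1.81-fold over day 8. Srf, which drives many promoters of the class, passed with 1.39-fold and 1.54-fold, and was lost when any of 9 of the 12 arrays was left out.

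**Figure D2:**
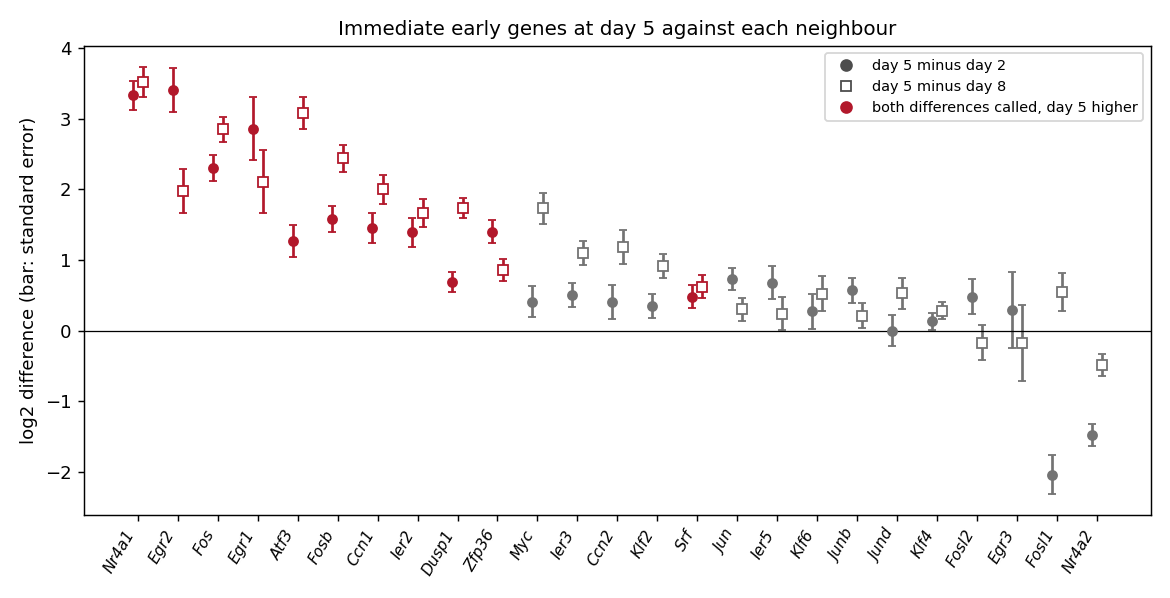
For each of the 25 immediate early genes tested, circles give day 5 minus day 2 and open squares day 5 minus day 8, on the log2 scale. Bars are standard errors, and colour marks the 11 peaks. Nr4a1 lies at 3.33 and 3.52, and Fos at 2.3 and 2.85.

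Of 25 immediate early genes that could be tested, 16 were higher and 1 was lower at day 5 than the average of its neighbours, with a median difference of 0.80 against -0.01 over all 13742 genes tested. Over those genes 6.15% were higher and 7.98% lower. Peaks in the strict sense were 11 of the 25, named above, against 1.36% of all genes, and 7 of the 11 were called with slide as a block. The 4 that were not were Egr1, Egr2, Zfp36 and Srf, and no member of the list was a trough. In the 12 fits without 1 array each, 10 or 11 members were peaks. The 1 lower gene was Nr4a2, the sister receptor of Nr4a1, at -0.88, -1.15 and -1.22 at day 5 against 0.25, 0.28 and 0.69 at day 2. Its difference from day 8 was -0.49 and missed the threshold (limma adjusted p = 0.0764).

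One quality flag moves with this list. The scanner software marked 79.5% of the array values of the 11 immediate early peaks as spatially non-uniform spots, against 39.7% of values over all 297 peaks and 38.6% over all tested probes. All 12 values of Nr4a1 and of Egr2 carried the mark. With marked spots left out, 8 of the 25 genes and 1 of the 11 peaks kept a value at every stage, and that 1, Fosb, remained a peak. The part of this mark in the other 10 results was not tested. Outside this list, leaving out marked spots left no value for Gadd45g, Cacng1, Stat2, Ifit2, Ltbp1, Npm1, Sfxn1 and the Ank1 probes described below. The same held for the peak probes of Tnnt2 and Ldb3. No value was left at day 5 for Ptgs2, Cxcl1, Heyl, Dbh, Ddc, Nppc, Asb2, Acta2, Cryab and the Nfkbiz probes. Nor did AK040997, Prl2c3 and Prl2c5 keep a value at day 5, or Myog and Vmn2r78 at day 2. The part of the mark in those results was not tested either.

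Regulators that cells induce together with the immediate early class were found among the highest peaks. Trib1, a pseudokinase that brings substrates to an ubiquitin ligase, stood at -1.5, -1.55 and -1.77 at day 5, against -3.72, -3.32 and -3.55 at day 2 and -4.45, -3.88 and -3.97 at day 8. The groups did not overlap, and the differences were 3.79-fold and 5.64-fold (limma adjusted p = 1.01e-05 and 6.17e-05). Sik1, a kinase that restrains CREB coactivators and class II histone deacetylases, was 3.79-fold over day 2 and 4.75-fold over day 8 (adjusted p = 8.26e-05 and 0.000483). Both were called in every fit that left out 1 array and with slide as a block.

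Inflammatory mediators formed a small group of peaks. Ptgs2, the inducible cyclooxygenase of prostaglandin synthesis, was -0.36, -1.09 and -1.37 at day 5, against -2.88, -3.05 and -2.46 at day 2 and -3.19, -2.75 and -2.83 at day 8. Its day 5 level was not called different from proliferation, where it was -0.85, -0.81 and -0.8 (limma adjusted p = 0.725). Cxcl1, a neutrophil-attracting chemokine, was 2.35-fold over day 2 and 2.98-fold over day 8 (limma adjusted p = 0.000817 and 0.00152). The NF-kappaB regulator Nfkbiz was a peak on all 3 of its probes, 2.49- to 2.96-fold over day 2 and 4.89- to 5.72-fold over day 8. It was chosen for this description after its values were seen. Il17b, a cytokine of the IL-17 family, had levels of -3.35, -3.2 and -3.43 at day 5, 3.95-fold over day 2 and 4.83-fold over day 8 (adjusted p = 0.000197 and 0.000915). Of 18 chemokine and cytokine genes tested, 5 were higher and 1 was lower at day 5 than the average of its neighbours, with a median of 0.30. The shares over all genes tested were 6.15% and 7.98%. Summed macrophage markers (5 of 8 on the array measurable, Tyrobp, Cd14, Csf1r, Aif1 and Lyz2) were 0.894 to 1.21 times the percentile at day 5, between 1.24 to 1.63 at day 2 and 0.85 to 0.982 at day 8.

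**Figure D3:**
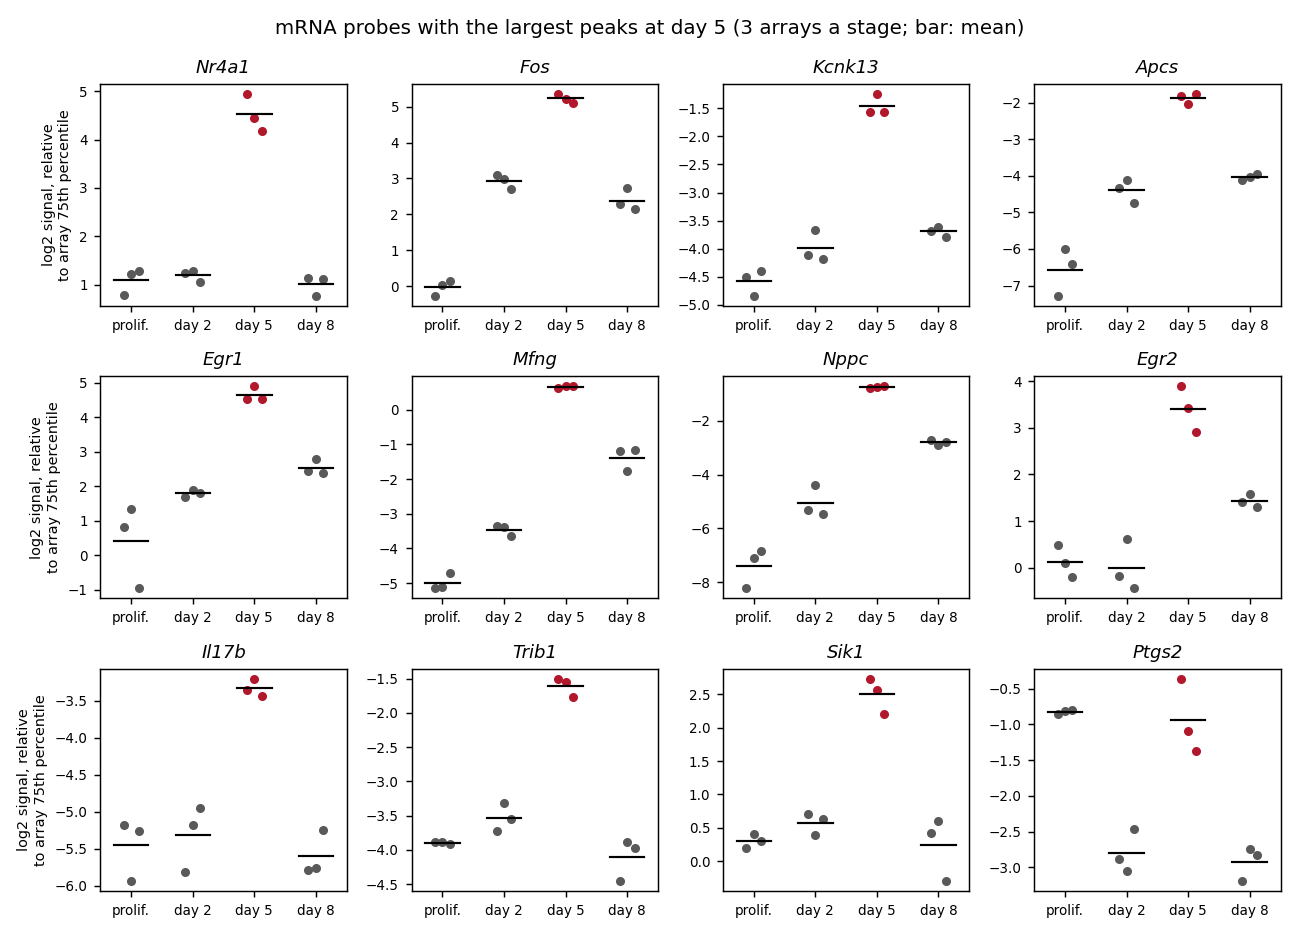
Points are the log2 levels on each array, by stage, of the peaks ranked highest by the smaller of the 2 differences, relative to the array's 75th percentile. For Mfng the day 5 arrays at 0.64 to 0.68 lie above the day 8 arrays at -1.78 to -1.17, which themselves lie above day 2.

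Further peaks encode secreted or membrane proteins. Kcnk13, a 2-pore potassium channel subunit, was at -1.56, -1.24 and -1.56 at day 5, -4.12, -3.66 and -4.19 at day 2 and -3.68, -3.61 and -3.79 at day 8. That is 5.8-fold over day 2 and 4.72-fold over day 8 (limma adjusted p = 2.18e-06 and 0.00014). Apcs, the pentraxin serum amyloid P, showed the same shape at 5.74-fold and 4.46-fold (adjusted p = 5.83e-05 and 0.00171). Nppc, the precursor of C-type natriuretic peptide, kept part of its gain: it was -0.79, -0.75 and -0.71 at day 5, -2.71, -2.88 and -2.79 at day 8 and -5.33, -4.4 and -5.48 at day 2. Its fall from day 5 to day 8 was 4.12-fold (adjusted p = 0.00577) and missed the threshold with slide as a block (adjusted p = 0.0656).

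Genes of the Notch pathway, which holds myoblasts undifferentiated when active, were among the peaks. Mfng, a fringe glycosyltransferase that modifies Notch receptors, was 0.64, 0.68 and 0.68 at day 5 against -3.36, -3.38 and -3.63 at day 2 and -1.2, -1.78 and -1.17 at day 8. It was 17.4-fold over day 2 and 4.14-fold over day 8 (limma adjusted p = 1.41e-07 and 0.000295). The ligand Dll1 was 2.63-fold and 1.78-fold over the same stages, and Heyl, a bHLH repressor induced by Notch, 2.84-fold and 2.22-fold. Each of these 2 lost the call in 4 of the 12 fits without 1 array, and with slide as a block the adjusted p of the later step was 0.233 for Dll1 and 0.172 for Heyl. Of 20 Id, Notch and Hes genes tested, 5 were higher and none was lower in the contrast, with a median of 0.16. Over all genes tested, 6.15% were higher and 7.98% lower.

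Myog and Myod1 were peaks among the myogenic regulators, neither of them with slide as a block. Myog was 6.4, 6.67 and 6.58 at day 5 and 4.91, 5.27 and 5.19 at day 8, after 1.7, 2.36 and 1.45 at day 2 and -1.21, -0.62 and -1.11 in proliferation. The fall from day 5 to day 8 was 1.43 ± 0.24 (2.69-fold, limma adjusted p = 0.00514), the groups did not overlap, and the within-slide difference was 1.46, although the adjusted p with slide as a block was 0.0636. Myod1 changed less, from 6.79, 6.91 and 6.94 at day 5 to 6.36, 6.01 and 6.54 at day 8 (1.49-fold, adjusted p = 0.0481), and it lost the call in 11 of the 12 fits without 1 array. The fusion protein Mymk and the embryonic myosin Myh3 gave no call for a fall: Mymk was 3.86, 4.05 and 3.85 at day 5 and 3.74, 3.77 and 3.71 at day 8 (adjusted p = 0.529), and Myh3 differed by -0.06 ± 0.21 (adjusted p = 0.877). Of 11 myogenic factors tested, 3 were higher in the contrast, 2 were peaks and the median difference was 0.01. Over all genes tested, 6.15% were higher and 1.36% were peaks.

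Sarcomere genes were high in the contrast, and few of them fell after day 5. Each gene was counted by its brightest probe. Of 43 tested, 33 were higher and 2 lower at day 5 than the average of day 2 and day 8. The median of the list was 1.99, yet 8 lay above both neighbours on all arrays and 2 were peaks. Those 2 were Tpm2, beta-tropomyosin (5.04-fold over day 2, 1.78-fold over day 8, limma adjusted p = 2.9e-06 and 0.0126, the latter 0.156 with slide as a block), and Cryab, a small heat shock protein of the Z-disc (1.59-fold and 1.72-fold), which was lost in 8 of the 12 fits without 1 array. Neither was called with slide as a block. Probes of the same gene could differ in the muscle genes Tnnt2, Smyd1 and Ldb3, chosen after their values were seen. Peaks were 1 of 9 tested probes of Tnnt2, 1 of 2 of Smyd1 and 1 of 7 of Ldb3. These probes were 2.21-, 1.5- and 1.47-fold over day 8 (limma adjusted p = 0.0382, 0.0389 and 0.031). With slide as a block none of them was called (adjusted p of the later step 0.251, 0.145 and 0.0837). Among 25 genes that handle calcium or serve the neuromuscular junction, 18 were higher, 1 lower, and 2 were peaks. For both lists, the shares over all genes tested were 6.15% higher, 7.98% lower and 1.36% peaks. Cacng1, the gamma subunit of the skeletal muscle calcium channel, was 6.68, 6.64 and 6.74 at day 5 against 5.49, 4.91 and 5.07 at day 2 and 5.45, 5.06 and 5.53 at day 8 (adjusted p = 0.000403 and 0.0053). Sln, the sarcoplasmic reticulum peptide sarcolipin, was 2.48-fold over day 8 (adjusted p = 0.0447), and 0.365 with slide as a block.

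Ank1, Fndc5 and Asb2, muscle genes chosen after their values were seen, were peaks too. Ank1, whose small forms anchor the sarcoplasmic reticulum, was a peak on both probes given here, 12.3-fold and 6.04-fold over day 2 and 3.28-fold and 2.25-fold over day 8. The first probe was lost in 2 of the 12 fits without 1 array, and the second with slide as a block (adjusted p of the later step 0.11). Fndc5, the membrane precursor of irisin, was 11.9-fold over day 2 and 3.01-fold over day 8 (limma adjusted p = 2.38e-07 and 0.000838). Asb2, a ubiquitin ligase subunit, was 9.81-fold and 2.3-fold, and its later step missed the threshold with slide as a block (adjusted p = 0.108). Gadd45g, a growth arrest and stress gene of the list of cell cycle inhibitors, was 6.18, 6.02 and 5.9 at day 5 against 5.22, 5.21 and 4.88 at day 2 and 4.55, 4.42 and 4.68 at day 8 (adjusted p = 0.000965 and 0.000624). Acta2 and Lmod1, 2 of 5 smooth muscle markers tested, were peaks at 2.05-fold and 1.72-fold over day 8. Acta2 was called in every alternative that gave a value, whereas Lmod1 was lost in 5 of the 12 fits without 1 array and in 6 of 9 other settings, slide as a block among them (adjusted p of the later step 0.181). The summed smooth muscle markers were 51.4 to 67 times the percentile at day 5, 52.9 to 59.5 at day 2 and 41.6 to 44.8 at day 8. In unsorted cultures, fewer cells of a type and less RNA per cell cannot be told apart.

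Dbh and Ddc, enzymes of catecholamine synthesis, were also chosen after their values were seen. Dbh, the enzyme that turns dopamine into noradrenaline, was 1.74, 1.57 and 1.75 at day 5 against -1.9, -1.99 and -2.21 at day 2 and 0.22, -0.19 and 0.33 at day 8. Ddc, the decarboxylase before it in the pathway, was 0.09, 0.31 and 0.33 at day 5, -2.37, -2.26 and -2.51 at day 2 and -1.16, -1.25 and -1.12 at day 8. Both rose and fell without overlap between stages: Dbh was 13.2-fold over day 2 and 2.96-fold over day 8 (limma adjusted p = 1.46e-07 and 0.000722), and Ddc 6.16-fold and 2.67-fold (adjusted p = 2.7e-07 and 0.000372). Both were called with slide as a block and in all 12 fits without 1 array. Th, of the same pathway, was on the array but not well above background on all 3 arrays of any stage, so it was not tested. Other genes that handle these amines were not peaks. Pnmt, which makes adrenaline from noradrenaline, rose further, from a mean of -4.94 at day 5 to -3.39 at day 8 (adjusted p = 0.0253). The vesicular transporter Slc18a1 was lower in the contrast, by -0.62 (adjusted p = 0.0063), and Slc18a2, Maoa and Maob were not called in it (adjusted p = 0.989, 0.271 and 0.747). The noradrenaline transporter Slc6a2 rose 14.1-fold from day 2 to day 5 and gave no call for a fall (difference -0.31 ± 0.22, adjusted p = 0.392). Cyb561, which supplies electrons to Dbh in secretory vesicles, was a trough, 6.12-fold under day 2 and 1.97-fold under day 8 (adjusted p = 7.14e-07 and 0.00442), but was not called with slide as a block (adjusted p of the later step 0.0858) or with normexp.

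Mcpt8, a serine protease gene of the mast cell protease cluster, fell furthest from day 2 among the troughs named here. Its level was 2.27, 2.67 and 2.89 at day 2, -1.78, -2.3 and -1.74 at day 5 and 0.4, 0.6 and 0.1 at day 8, with 0.75, 1.06 and 0.83 in proliferation. The 3 later stages did not overlap. Day 5 was 23.4-fold under day 2 (-4.55 ± 0.21, limma adjusted p = 1.48e-07) and 4.94-fold under day 8 (-2.3 ± 0.21, adjusted p = 0.000295). Within slide 2 the difference from day 2 was -4.82, within slide 3 that from day 8 was -2.1, and the call held with slide as a block. Sfxn1, a mitochondrial serine carrier, was -0.65, -1.07 and -0.74 at day 5 against 0.82, 0.74 and 0.94 at day 2 and 1.01, 0.27 and 1.04 at day 8, 3.15-fold and 3.02-fold lower (adjusted p = 0.000145 and 0.00174). Zfp185, a LIM domain protein gene, was 2.93-fold under day 2 and 2.79-fold under day 8, and a trough on both probes named here, the second not with slide as a block (adjusted p of the later step 0.133). All 12 values of Sfxn1 carried the non-uniform mark, and none of those of the first Zfp185 probe did. For Mcpt8, leaving out marked spots kept all 3 day 5 arrays but no array of day 2, day 8 or proliferation. The part of the mark in the differences of Mcpt8 was not tested.

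**Figure D4:**
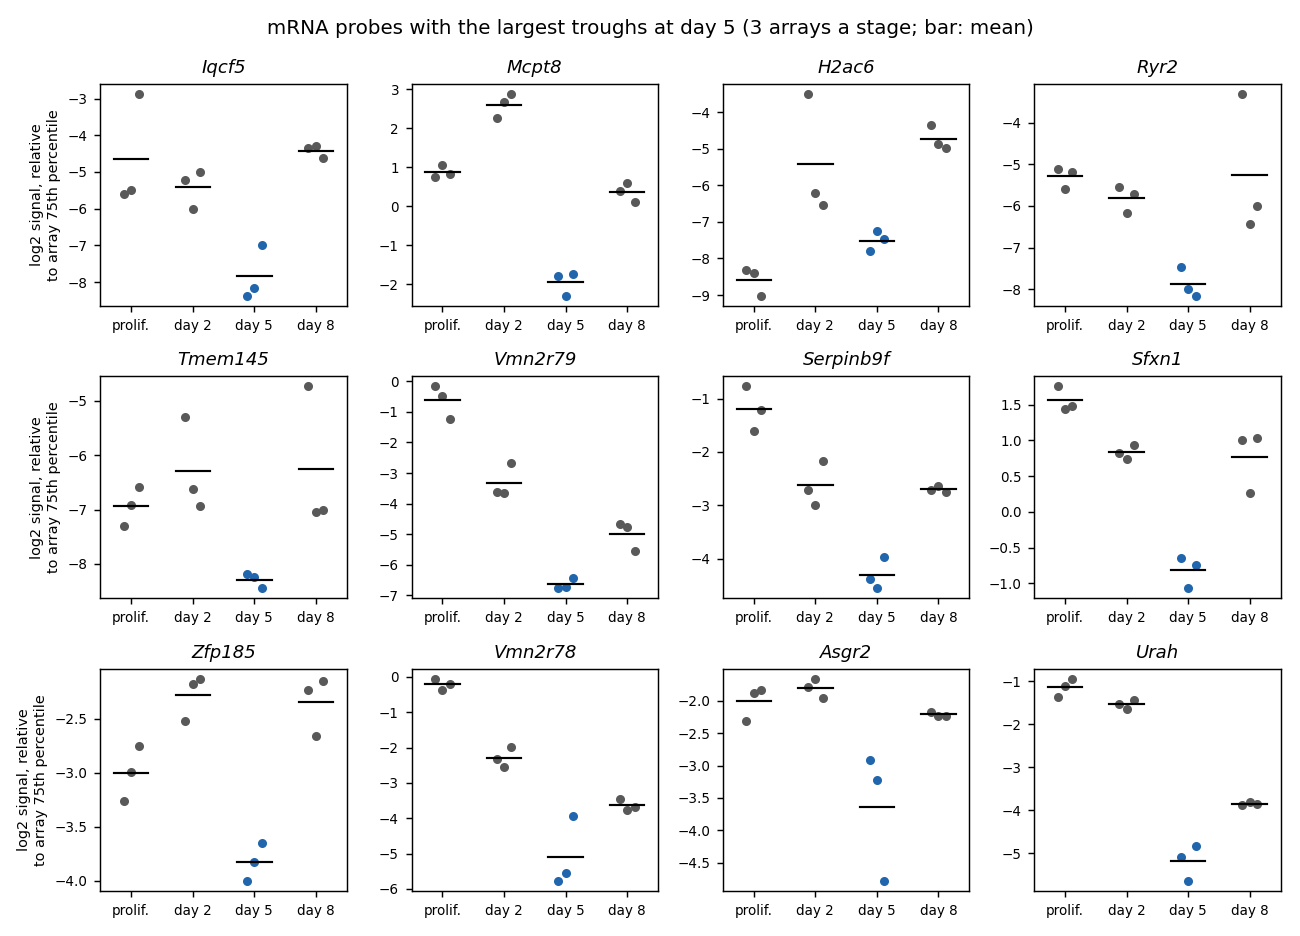
Points are the log2 levels on each array, by stage, of the troughs ranked highest by the smaller of the 2 differences, relative to the array's 75th percentile. The day 5 arrays of Mcpt8 lie at -2.3 to -1.74, under every other array of that gene, and the day 2 arrays of H2ac6 are spread from -6.53 to -3.5.

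Several of the troughs ranked highest were dim at day 5 and less secure. Iqcf5, an IQ motif gene known from testis, was well above background on no day 5 array and was at least 4.03-fold lower there than at day 2 and at least 8.01-fold lower than at day 8 (limma adjusted p = 0.0148 and 0.00886), with the fit's call lost in 2 of the 12 fits without 1 array. Tmem145 was also under that level on all day 5 arrays, by at least 2.20-fold and 2.24-fold, and was lost in 11 of 12. H2ac6, a replication-dependent histone, and Ryr2, the cardiac ryanodine receptor, were well above background on 1 of 3 day 5 arrays each, and were lost in 3 and 5 of the 12 fits. For Ryr2 the day 8 arrays were -3.3, -6.43 and -6, with 1 array far above the others.

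Families of near-identical genes recur among the troughs, and probes of such copies may share their targets. The proliferins Prl2c2, Prl2c3 and Prl2c5, prolactin-family hormones of growing cells, fell 11.2- to 11.5-fold from day 2 to day 5 and were 2.35- to 2.42-fold lower at day 5 than at day 8 (limma adjusted p from 0.00288 to 0.0183). Their day 8 levels stayed under day 2, at 0.91, 0.77 and 1.16 for Prl2c2 against 2.89, 3.09 and 3.52. The protease inhibitors Serpinb9f and Serpinb9e were 3.02- and 2.16-fold under day 8, and the vomeronasal receptor genes Vmn2r79 and Vmn2r78 3.14- and 2.74-fold. None of these 7 was called with slide as a block, where the adjusted p of the later step ran from 0.0596 for Prl2c3 to 0.524 for Vmn2r78. Of the 12 fits without 1 array, Serpinb9e was lost in 9, Vmn2r78 in 5, Prl2c5 in 4 and Vmn2r79 in 2. Prl2c2, Prl2c3 and Serpinb9f were lost in none of them. Urah, an enzyme of urate breakdown, was 12.6-fold under day 2 and 2.53-fold under day 8 (adjusted p = 3.2e-07 and 0.00274, the latter 0.0707 with slide as a block, where it was not called), and Asgr2, a lectin subunit known from liver, was 3.58-fold and 2.69-fold lower and was lost in 4 of the 12 fits without 1 array.

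Nefl, the light neurofilament of neurons, was 4.28, 4.53 and 4.86 at day 2, 0.25, 0.28 and 0.25 at day 5 and 0.9, 1.12 and 1.15 at day 8. It was 19.7-fold lower at day 5 than at day 2 and 1.73-fold lower than at day 8 (limma adjusted p = 8.95e-08 and 0.0108). Gap43, a growth cone protein, and Stmn2, a tubulin-binding protein of axons, were chosen after their values were seen: they were 4.41- and 5.33-fold under day 2 and 1.97- and 1.61-fold under day 8. Of 8 neural markers tested of 9, 4 were lower in the contrast, Nefl was the 1 trough, and the list as a whole showed no return: its sum was 75.1 to 81.3 times the percentile at day 2, 18.3 to 21.1 at day 5 and 17.6 to 19 at day 8. The slide block left the later step at adjusted p = 0.0739 for Nefl, 0.057 for Gap43 and 0.349 for Stmn2, so none of these 3 was called in that fit.

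Sterol and fatty acid synthesis was the list with the most members low at day 5 among those built around metabolism. Of 26 genes tested, 15 were lower and none was higher than the average of the neighbours, with a median of -0.60, and 7 lay below both on all arrays. Over all genes tested, 7.98% were lower and 6.15% higher. The 1 trough was Cyp51, lanosterol demethylase, at -2.48, -2.55 and -2.53 at day 5 against -1.57, -1.44 and -1.49 at day 2 and -1.64, -1.73 and -1.78 at day 8 (2.03-fold and 1.74-fold, limma adjusted p = 6.76e-05 and 0.00279), which was called with slide as a block. The others by array order were Acaca, Dhcr7, Hsd17b7, Hmgcs1, Pmvk and Lss. Their recovery by day 8 was not called: Hmgcs1 was 1.35-fold under day 8 (adjusted p = 0.178) and Lss 1.11-fold (adjusted p = 0.531).

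Signalling and matrix genes gave single troughs. Tnc, the matrix protein tenascin-C, was 5.55, 5.58 and 5.6 at day 5 against 6.36, 6.48 and 6.27 at day 2 and 6.63, 6.03 and 6.42 at day 8, 1.73-fold and 1.72-fold lower (limma adjusted p = 0.0023 and 0.0102). Ltbp1, which anchors latent TGF-beta in the matrix, was 3.21-fold under day 2 and 2.17-fold under day 8. Stat2, a transducer of type I interferon signals, was 2.07-fold and 1.83-fold lower, and Ifit2, an interferon-stimulated gene, 1.48-fold and 1.77-fold lower. Il1rl1, the IL-33 receptor, was 2.1-fold and 1.87-fold lower. With slide as a block the later step missed the threshold for all 5, with adjusted p of 0.122, 0.193, 0.084, 0.169 and 0.0701 in that order. Of 21 interferon-stimulated genes tested, 1 was higher and 4 were lower in the contrast, against 6.15% and 7.98% of all genes tested, and Stat2 and Ifit2 were the 2 troughs, against 1.21%. Ifit2 was lost in 7 and Il1rl1 in 4 of the 12 fits without 1 array.

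Cell cycle genes were low at day 5 without coming back. Of 27 mitotic genes tested 20 were lower and none was higher in the contrast, with a median of -0.94, but none was a trough and none lay below both neighbours on all arrays. The 26 S phase genes gave 11 lower, 1 higher and no trough. Replication-dependent histones differed in part: of 20 tested, 6 were lower, and H2ac8 and H2bc18 were troughs at 1.53- and 1.56-fold under day 8 (limma adjusted p = 0.0346 and 0.0369), neither called with slide as a block (adjusted p = 0.294 and 0.281), and lost in 6 and 7 of the 12 fits without 1 array. Of 14 control genes none was called in either direction. The shares over all genes tested were 6.15% higher, 7.98% lower and 1.21% troughs.

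**Figure D5:**
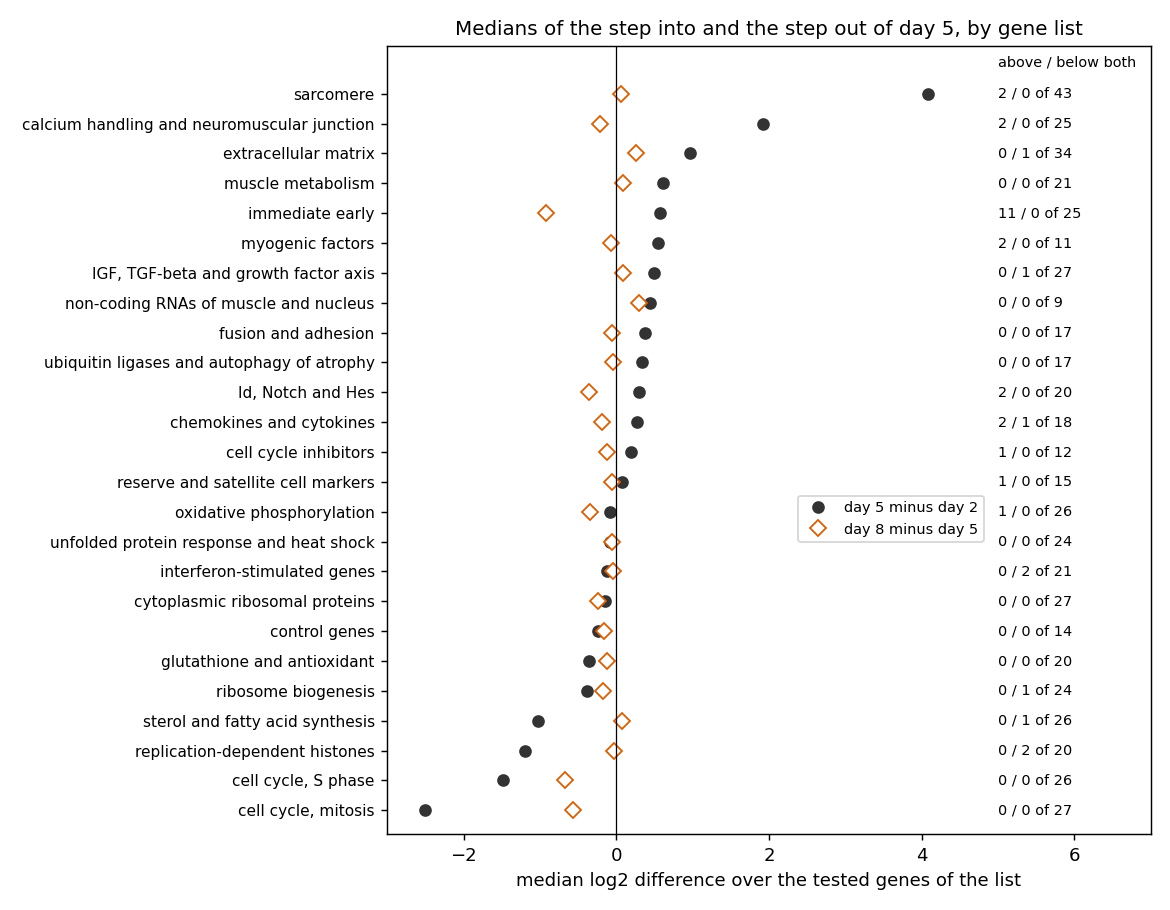
Circles give, for each gene list, the median log2 difference of day 5 from day 2 over its tested genes. Open diamonds give that of day 8 from day 5. Numbers at the right count the members called above and below both neighbours. Immediate early genes lie at 0.57 and -0.92 with 11 peaks, and sarcomere genes at 4.08 and 0.06 with 2 peaks. Mitotic genes lie at -2.51 and -0.57 with no trough.

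Both classes of transcript on the array held members. Peaks were 227 of 16270 mRNA probes (1.4%) and 70 of 6690 probes of the non-coding set (1.05%), and troughs were 199 (1.22%) and 53 (0.792%). The transcript uc008ker stood at 0.25, 0.73 and 0.53 at day 5 against -1.33, -0.85 and -1.08 at day 2 and -1.21, -1.05 and -1.32 at day 8, 3.01-fold and 3.24-fold higher (limma adjusted p = 4.43e-05 and 0.000483). AK081596 was 4.29-fold over day 2 and 6.43-fold over day 8 (adjusted p = 0.000811 and 0.00152). Both were called with slide as a block and in all 12 fits without 1 array. AK040997 was 7.21-fold and 4.39-fold higher, and uc007mjc was at least 14.2-fold over day 2, where no array was well above background, and 3.25-fold over day 8. With slide as a block both missed the threshold for the later step (adjusted p = 0.168 and 0.145), and uc007mjc was also lost in 5 of the 12 fits without 1 array. In uc009sua day 5 replicate 3 was at -4.54 against -2.43 and -2.42 on the others, and the call was lost in 11 of the 12 fits.

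Among the non-coding troughs, uc008gzi was -5.79, -5.95 and -5.43 at day 5 against -4.46, -4.57 and -4.48 at day 2 and -4.37, -4.39 and -4.23 at day 8. It was 2.33-fold under day 2 and 2.63-fold under day 8 (limma adjusted p = 0.000271 and 0.00117) and was called with slide as a block. AK083292 was 4-fold and 2.22-fold lower, AK020037 3.23-fold and 2.29-fold, uc008xoi 3.55-fold and 2.97-fold, and AK053547 3.03-fold and 3.13-fold. With slide as a block AK083292 was called, and AK020037, uc008xoi and AK053547 were not (adjusted p of the later step 0.198, 0.13 and 0.13). AK083292, uc008xoi and AK053547 were well above background on 2 of 3 day 5 arrays. These transcripts are named by the identifiers of the array design and no gene name or role is given to them.

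Second probes of the same gene bear on how far a peak belongs to the gene. For 35 peak genes with 62 further tested probes, 59 of those probes had the same sign in the contrast, 50 had the same sign in both differences, 18 were peaks themselves and none was a trough. For 40 trough genes with 60 further probes the numbers were 50, 48 and 14, and none was a peak. Of all tested probes, 1.29% were peaks and 1.1% troughs. Probes of 1 gene are not independent, and genes such as Tnnt2, Ldb3 and Crem gave several. The same sign in the contrast is not a reversal: further Tnnt2 probes at 1.44, 1.39 and 1.38 there differed from day 8 by -0.16, -0.21 and -0.35.

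Values near the threshold show how fine the selection was. Just inside it were Nav2, Pim1 and uc008wem, with the larger of their 2 adjusted p values at 0.05 after rounding, 0.0497 and 0.0496. Just outside were Eya2, Ier3 and Ncoa7, at 0.0501, 0.0502 and 0.0502. By array order, AK136560, Rhpn2 and Qtrt2 were separated by gaps of 0.00013, 0.00022 and 0.00029 on the log2 scale, and Vill, Cxcr6 and AK015372 overlapped by gaps of -4.9e-06, -1.3e-05 and -2.9e-05. Of the 297 peaks, 272 were well above background on all 9 later arrays and 12 entered the test through day 5 alone. Of the 252 troughs, 222 were above it on all 9 and 29 entered through other stages but not through day 5. For these 12 peaks and 29 troughs the filter itself favoured the direction of the call.

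Promoter windows of RefSeq were found for 147 of the 201 peak genes, 144 of the 183 trough genes, 10921 of the 13742 tested genes and 27025 genes in all, and motifs were searched on both strands of these 300 bases. The E-box CAGCTG, a preferred site of myogenic bHLH dimers, was present in 27.9% of peak promoters, 13.9% of trough promoters and 15.4% of those of all tested genes. The other E-box CACCTG was in 25.2%, 22.9% and 17.7%. The AP-1 motif TGANTCA was in 4.76% of peak promoters, 16% of trough promoters and 5.92% of those of tested genes. The GC box GGGCGGG was in 42.2%, 34% and 44.2%, TATAAA in 14.3%, 20.1% and 9.19%, CCAAT in 34%, 36.1% and 39.1%, and the cyclic AMP response element TGACGTCA in 2.04%, 1.39% and 3%. Of the 11 immediate early peaks 9 had a window, 7 of which held a GC box and 1, of Dusp1, the cyclic AMP response element. In the sequences printed above, Fos holds TATAAA 33 bases and CAGCTG 22 bases before the start, Kcnk13 holds CACCTG at 72, CATTCCT at 123 and GAAANNGAA at 222, Mcpt8 holds CACCTG at 60 and CATTCCT at 203, and H2ac6 holds TATAAA at 32 and CCAAT at 69, 98 and 169. Also searched were GGGANTTTC, TCACNCCAC and the E2F motif. Overlapping matches were counted once per promoter and motif. These are letter matches and were not tested as binding sites.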

How the data were processed

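Total RNA of C2C12 cells was hybridised with Cy3 to 12 custom Agilent arrays, 3 from independent experiments at each of 4 stages, per the labels. The deposited values are background-corrected spot intensities (gProcessedSignal) that the submitters' processing notes credit to Agilent Feature Extraction 10.5.1.1, not normalized between arrays. Control spots and population outliers were left out, and spots marked non-uniform were kept. Log2 intensities were reduced by the array's 75th percentile and averaged per probe. A probe was tested when well above background on all 3 arrays of any stage. Stage means were fitted with limma 3.58.1 in R 4.3.3 (lmFit, eBayes), with Benjamini-Hochberg adjustment over 22960 probes and a threshold of 0.05. The fit was tested on simulated data. Symbols come from RefSeq transcripts, and the brightest probe stands for a gene in the lists. The genes named are the 12 mRNA genes and 5 non-coding transcripts of each direction with the largest smaller difference (called against both neighbours and in the contrast, members by array order, well above background on the brighter side), up to 4 such members of each list, Myog, Myod1, Mymk and Myh3, and 3 probes on each side of the threshold. Other genes were chosen after their values were seen. Members and lists were chosen with earlier results of these data known. Precision is limited by 3 arrays a stage. Replicate numbers did not pair the arrays: same-numbered arrays of different stages had deviations correlated at -0.16 to 0.24 (mean 0.02, 18 pairs). Alternatives were normexp background correction, quantile normalization, another percentile, other filters, slide or replicate blocks, fewer arrays and stricter thresholds. A few items are not reported here.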

Additional observations from a re-analysis of the deposited data

How the results depend on the processing

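The 3047 probes called in the contrast of day 5 with its neighbours, the 549 peaks and troughs and the 1920 members by array order stayed within 1.5 times of these counts with quantile normalization (3138, 539 and 2203), when detected probes alone set the percentile (3142, 548 and 1980) and without the proliferation arrays (2958 and 490). The count of peaks and troughs moved to 322 with normexp (run on median signals), 238 without a filter on dim probes, 142 with slide as a block, 150 at an adjusted p of 0.01 and 158 with a minimum log2 difference of 1. The contrast moved to 1854 without the filter, 1479 at the stricter p and 1015 with the minimum difference. Without spots marked non-uniform, 13424 probes could be tested and the counts were 1452, 241 and 926; 235 of those 241 were among the original 549. Leaving out single arrays gave 1898 (without day 5 replicate 1) to 3225 contrast calls, 260 to 582 peaks and troughs, and 2183 to 7687 members by array order; without day 5 replicate 3, which shares its slide with day 8, 2123 lay above and 5564 below, and without replicate 2 3103 were members. Leaving out an array can add members by array order but cannot remove any, so those counts could not fall. How far they rose, and the cause of the other shifts, was not tested. Among the gene values carried through the alternatives, none that was called changed sign. Values that were not called could do so: Slc18a2 was 0.01 in the contrast and -0.12 with slide as a block. Of the values for single genes and lists, 6016 were the same by call or count, 683 lost a call, 6 gained one and 466 counts moved by over 1.5 times. With replicate number as a block the counts were 2842 and 464, with 250 peaks and 214 troughs, of which 429 were among the original 549; the numbers did not pair the arrays. Scans coincided with slides, so a scan block was not run separately. On their lower side, at least 1 array was not well above background for 25 of 297 peaks and 29 of 252 troughs, which limits their folds.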

Other observations

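Lists not described above held few members. Of 24 genes of the unfolded protein response and heat shock, 3 were higher and 1 was lower at day 5 than the average of its neighbours, against 6.15% and 7.98% of all genes tested, and 2 lay above and 4 below both neighbours on all arrays. The 26 genes of oxidative phosphorylation gave 1 peak, against 1.36% of all genes tested. It was Cox7b, a subunit of cytochrome c oxidase, at 2.21-fold over day 2 and 1.55-fold over day 8 (limma adjusted p = 0.000424 and 0.0367). The 24 genes of ribosome biogenesis gave 1 trough, against 1.21% of all genes tested. It was the nucleolar protein gene Npm1, 1.59-fold under day 2 and 1.48-fold under day 8 (limma adjusted p = 0.0103 and 0.0489). Neither was called with slide as a block (adjusted p of the later step 0.0524 and 0.237), and they were lost in 7 and 10 of the 12 fits without 1 array.

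Dmp1, a bone matrix protein gene, was a peak at 2.27-fold over day 2 and 1.87-fold over day 8 (limma adjusted p = 0.00589 and 0.0487). It was lost in 10 of the 12 fits without 1 array and in 8 of 9 other settings, slide as a block among them. The 6 osteoblast markers tested summed to 94.4 to 110 times the 75th percentile at day 5, below the 139 to 164 of day 2. Sprr2h, a cornified envelope gene of keratinocytes, was a trough that was lost in 9 of the 12 fits without 1 array and in 5 of 8 other settings, and the 7 keratinocyte markers tested summed to 27.4 to 30.9 at day 2, 6.92 to 7.58 at day 5 and 7.24 to 7.81 at day 8.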
